A study of Canis lupus familiaris with 20 samples.

Results

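In the vertebral cartilage of young dogs, 109 genes had lower RNA levels at postnatal day 14 than at day 9 by a similar amount in dogs with mucopolysaccharidosis VII (MPS VII) and in their unaffected littermates. The genes were chosen by a rule on measured values, out of 14550 genes with enough counts to be tested and 24580 in the deposited table. L is the log2 of CPM, a gene's counts scaled to a common library total with edgeR's TMM factors, with a prior count of 2. A gene was taken when its mean L at day 14 minus that at day 9 was at most -0.7 in both genotypes. The highest of the 5 control libraries at day 14 also had to lie below the lowest of the 5 at day 9. The MPS VII minus control difference had to lie within 0.58 at each age. The age condition left 384 genes, the separation of the control libraries 163 and the genotype limit 112, of which 3 lay at identifiers or places that the rule leaves out. The age changes, the genotype differences and the control separation are therefore descriptions of what was selected, and no test is given for them.

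The 20 libraries came from 20 dogs of a naturally occurring MPS VII model with a missense change, R166H, in GUSB, which encodes the lysosomal enzyme beta-glucuronidase. The 4 groups were MPS VII dogs (GUSB R166H/R166H) at day 14, MPS VII dogs at day 9, control dogs (GUSB R166H/+) at day 14 and control dogs at day 9, with 5 dogs in each. Controls were litter-matched carriers, so all 4 groups held at least 1 mutant allele in every cell. The tissue was epiphyseal cartilage beside the growth plate of the T12 vertebra, with the cranial and caudal pieces of a dog combined. The series asks how bone formation in this cartilage fails in MPS VII. None of the 24580 identifiers could be paired with a gene symbol (0 matched), so genes are given by their CanFam3.1 position, the tissue could not be checked against marker genes, and no lists of cell types or pathways could be counted.

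As background, the epiphysis of a vertebra is laid down as cartilage and later replaced by bone in endochondral ossification. Chondrocytes enlarge, the matrix mineralises, and vessels bring in the cells that resorb cartilage and lay down bone. MPS VII dogs store undegraded glycosaminoglycans, and their vertebral epiphyses ossify late. A second piece of background bears on the structure of the genes below. Transcripts copied back into the genome leave gene copies without introns, and automatic annotation often bridges a break in the reading frame of such a copy with a gap of a few bases, shorter than any working intron. Reads from a copy and its parent gene can be near-identical, and the values of such genes are uncertain.

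Depth and library make-up moved with age, and 1 library stood apart. Day 14 libraries held 15772761 to 22471728 counts and day 9 libraries 21419930 to 28028365. The mitochondrial chromosome took 3.07% ± 0.598 of counts in MPS VII dogs at day 14 and 2.57% ± 0.306 at day 9, and 3.80% ± 0.854 in controls at day 14 and 2.60% ± 0.449 at day 9 (SD, n = 5 each). Library 3 of the MPS VII dogs at day 9 gave 7.48% of its counts to its most abundant gene, against 25.4% to 33.2% in the other 4 of its group. The 109 genes took 0.458% of the counts of that library and 0.135% to 0.174% in the other 4. Without it the rule gave 112 genes, among them 79 of the 109. In bulk tissue, fewer cells of a type and less RNA per cell cannot be told apart.

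The median age change was -1.09 on the log2 scale in MPS VII (range -1.90 to -0.70) and -1.14 in controls (range -1.76 to -0.70). Over all tested genes the medians were -0.06 in MPS VII and -0.05 in controls. A change of -1 or lower was found in 62 of the 109 genes in MPS VII and in 81 in controls. The median MPS VII minus control difference was 0.17 at day 14 and 0.18 at day 9. It was above 0 in 84 of 109 genes at day 14 and in 81 at day 9, compared with 7583 and 7385 of the 14550 tested genes, although the rule bounds its size.

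**Figure D1:**
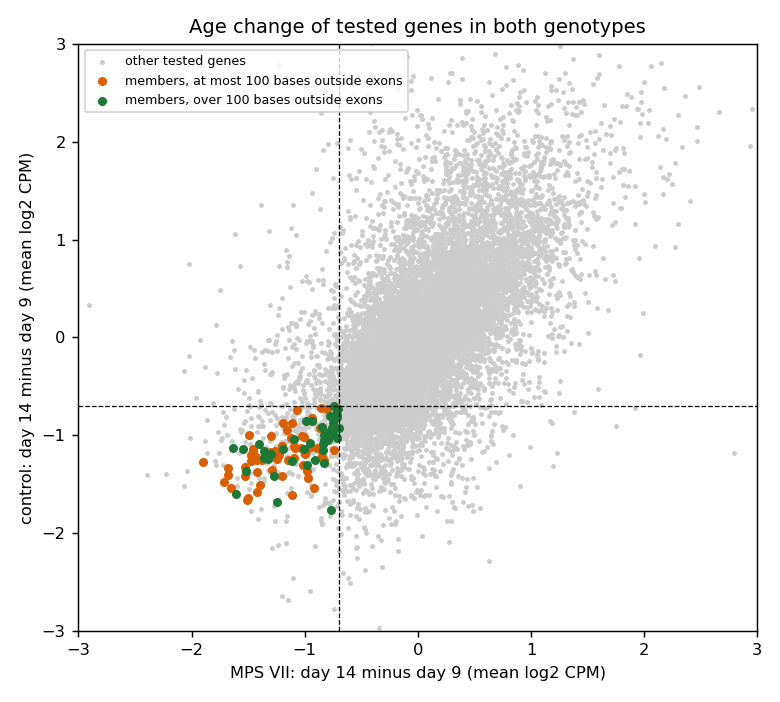
Each point is a tested gene, with the day 14 minus day 9 difference of mean log2 CPM in MPS VII dogs on the x axis and in control dogs on the y axis. Dashed lines mark -0.7, the 109 genes are coloured by their gap structure, and they fill the lower left corner down to -1.90 in MPS VII and -1.76 in controls. Both axes are drawn from -3 to 3.

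The counts called by edgeR's quasi-likelihood test (Benjamini-Hochberg adjusted p under 0.05) restate the selection and are given for scale only. Lower at day 14 in MPS VII were 71 of the 109 genes, where 9.92% of all tested genes were called in that direction. Lower at day 14 in controls were 94 of the 109, where the background was 20.7%. For genotype at day 14, 1 of the 109 was called in either direction against a background of 22%, and 7 had an unadjusted p under 0.05, as had 33.5% of all tested genes. For genotype at day 9 the count was 0 against a background of 8.38%, with 7 at an unadjusted p under 0.05 (22.7% of tested genes) and 0 by DESeq2 (1547 tested genes). For the age change in MPS VII minus that in controls it was 0 against a background of 3.26%, with 1 at an unadjusted p under 0.05 (18.5% of tested genes) and 0 by DESeq2 (932 tested genes). The genotype limit removes genes that would have been called in these last comparisons, so nothing is read from the low counts.

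The rule did not ask the MPS VII libraries to separate. All 5 MPS VII libraries at day 14 lay below all 5 at day 9 in 19 of the 109 genes, where 3.49% of tested genes did so. In the other 90 the ages overlapped in MPS VII, although each mean change was -0.7 or lower. Since the rule used the MPS VII means, the 19 are a description too.

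What the rule did not use at all was gene structure. The table lists the exon intervals of each gene, and the bases of a gene's span that no exon interval covers are called gap bases here. In 66 of the 109 genes (60.6%) the gap bases were at most 100, a limit set after the values had been seen. Of the 14550 tested genes 1568 (10.8%) met it. The share was 10.3% among tested genes at or above the lowest mean CPM of the 109. That cut, at 0.383 CPM, kept 14232 of the tested genes, so it does not match them to the 109 on level. A single unbroken exon interval was found in 38 of the 109 (34.9%), compared with 8.14% of tested genes. Gaps of 1 to 10 bases in all were found in 17 (15.6%), compared with 1.68%, and gaps of 11 to 100 bases in 11 (10.1%), compared with 0.955%. The excess ran on to genes with over 100 and at most 500 gap bases, with 13 genes (11.9%) against 1.75%. At the other end, 20 genes (18.3%) had over 5000 gap bases, against 73.0% of tested genes. The 66 are called near-continuous genes below and the other 43 interrupted genes. Over all tested near-continuous genes the median age change was -0.22 in MPS VII and -0.35 in controls. Over all tested interrupted genes it was -0.04 in MPS VII and -0.02 in controls. The median change of near-continuous tested genes was thus lower than that of interrupted ones, with the 66 counted among them. Outside the 109, the median log2 CPM minus the gene's mean was taken over near-continuous genes in each library. It averaged -0.02 at day 14 and 0.12 at day 9 in MPS VII, and -0.11 and 0.12 in controls. In MPS VII the ages overlapped, with a highest value of 0.08 at day 14 and a lowest of 0.01 at day 9.

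**Figure D2:**
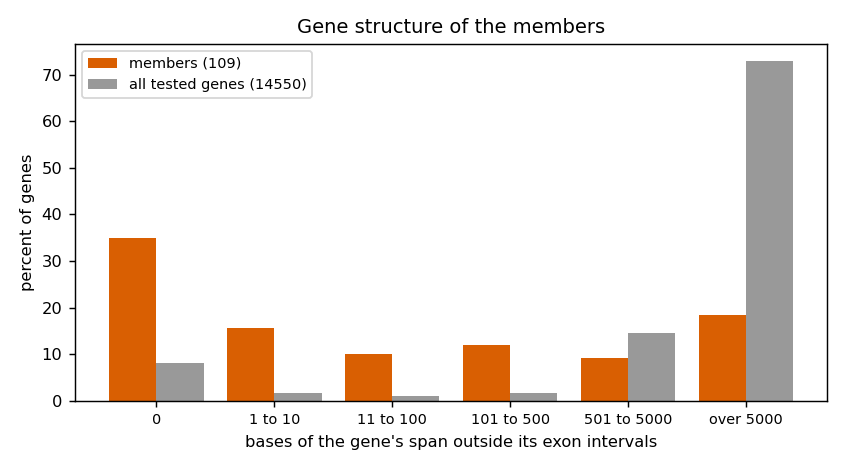
Bars give the percent of the 109 genes and of all 14550 tested genes, on the y axis, in classes of the bases of a gene's span that lie outside its exon intervals, on the x axis. The 109 genes are more frequent than tested genes in the 4 classes up to 500 bases and less frequent in the 2 classes above.

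Other features are given for each structure. The summed exon length was a multiple of 3 in 63 of the 66 near-continuous genes (95.5%), as in 88.7% of all tested genes of that structure. It was so in 24 of the 43 interrupted genes (55.8%), where all tested genes of that structure had 46.7%. A length divisible by 3 is what an annotation of the reading frame alone would give, without untranslated ends. The median exon length was 634.5 bases in near-continuous genes, against 774 in all tested genes of that structure. It was 1266 in interrupted genes, against 2605 in all tested genes of that structure. Over all tested genes it was 2312. Of the 109 genes, 24 (22%) lay inside the span of another gene, against 7.11% of tested genes. The near-continuous genes had this in 21.2%, close to the 20.3% of all tested genes of that structure, and the interrupted genes had it in 23.3%, against 5.52% of all tested interrupted genes. No exon of the 109 genes shared bases with an exon of another gene on the same strand (0 genes), and 7 did so on either strand.

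The genes were spread over the genome. They lay on 35 chromosomes and, in 2 cases, on unplaced scaffolds, with 8 each on chromosomes 10 and 26 and 5 on the X chromosome, and 52 of the 109 were on the plus strand. Only 1 pair was adjacent in the order of tested genes, on chromosome 10 with starts 44.4 kb apart. The median mean level of the 109 genes was 3.51 CPM (range 0.383 to 593), against 12.8 CPM over tested genes. It was 3.18 CPM in near-continuous genes, against 2.04 in all tested genes of that structure. In interrupted genes it was 5.21 CPM, against 15.2 in all tested genes of that structure. Per kilobase of exon the median level of the 109 was 5.50 CPM, against 5.71 over tested genes. By structure it was 6.30 against 3.66 in near-continuous genes and 4.66 against 5.98 in interrupted genes. Counts summed over the 20 libraries were at least 167 per gene, and 5 genes had a library with a count of 0.

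The near-continuous genes supplied 7 of the 8 largest mean age changes. The gene at chr22:3746138-3746398, a single interval of 261 bases, had 1.15, 2.95, 7.48, 1.59 and 4.85 CPM in MPS VII dogs at day 14, against 3.63, 8.10, 22.4, 12.1 and 10.5 CPM at day 9. In controls it had 2.82, 2.79, 1.59, 1.97 and 2.68 CPM at day 14, against 6.14, 4.61, 8.45, 12.6 and 4.21 CPM at day 9. The control ages did not overlap, as the rule requires, while library 3 of the MPS VII dogs at day 14 lay above library 1 at day 9. Its age change in mean log2 CPM was -1.71 in MPS VII and -1.48 in controls.

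The gene at chr26:16767636-16768586, a single interval of 951 bases, had the highest mean level of these 8, 16.8 CPM. It had 3.03, 6.19, 21.4, 6.46 and 18 CPM in MPS VII dogs at day 14, against 9.44, 21.6, 60.0, 31.1 and 23.7 CPM at day 9. In controls the values were 8.63, 8.65, 3.40, 5.95 and 5.19 CPM at day 14, against 14.6, 14.2, 27.3, 33.7 and 13.7 CPM at day 9. Libraries 3 and 5 of the MPS VII dogs were the highest at day 14 here as in the chromosome 22 gene, and library 1 was the lowest at both ages. The age change was -1.51 in MPS VII and -1.66 in controls.

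The largest change in MPS VII was that of the gene at chr23:40261986-40262873, a single interval, at -1.90, with -1.27 in controls. It averaged 0.884 ± 0.863 CPM in MPS VII dogs at day 14 and 2.56 ± 1.20 CPM at day 9, and 0.797 ± 0.392 CPM in controls at day 14 and 1.94 ± 0.457 CPM at day 9 (SD, n = 5 each). The gene at chr23:27585177-27585956, whose exon intervals leave out 3 bases, averaged 0.730 ± 0.471 CPM in MPS VII dogs at day 14 and 3.19 ± 2.88 CPM at day 9, and 0.642 ± 0.252 CPM in controls at day 14 and 2.12 ± 1.05 CPM at day 9. The SD in MPS VII dogs was about as large as the mean at day 14 in the first of these genes and at day 9 in the second. The remaining 3, at chr2:83013496-83014146, chr9:13211790-13212287 and chr17:10176030-10176316, had age changes of -1.50 to -1.68 in MPS VII and -1.33 to -1.64 in controls, and each had 0 to 3 gap bases.

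The most negative mean change of all belonged to an interrupted gene, ENSCAFG00000006414 at chr23:30171261-30331789, with 5 exon intervals over a span that leaves 156904 gap bases. It had 0.184, 0.762, 0.558, 0.318 and 0.291 CPM in MPS VII dogs at day 14, against 1.54, 0.919, 3.24, 1.13 and 0.827 CPM at day 9. In controls it had 0.484, 0.480, 1.13, 0.469 and 0.605 CPM at day 14, against 1.74, 1.96, 2.16, 2.67 and 1.61 CPM at day 9. Every day 14 library lay below every day 9 library of its genotype in both genotypes. The age change was -1.60 in each genotype, and the MPS VII minus control difference was -0.54 at each age.

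**Figure D3:**
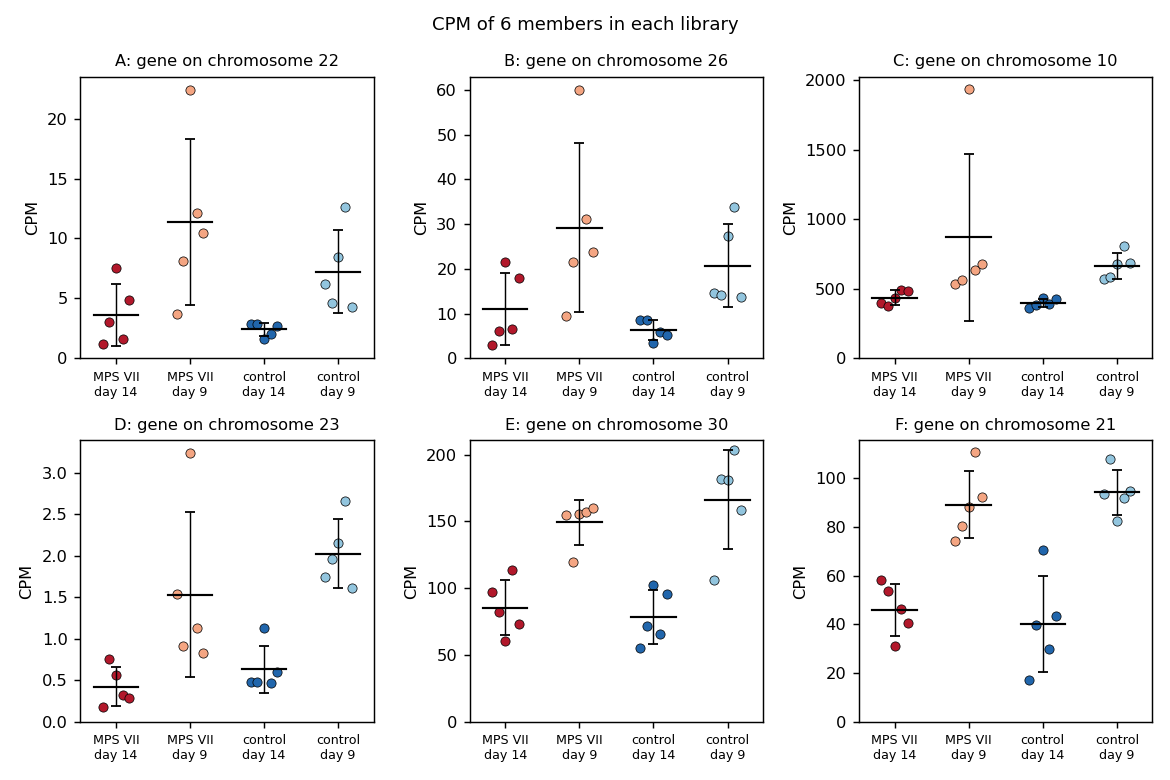
CPM of 6 of the 109 genes in each library (points), with the mean (line) and SD (bar) of the 5 libraries of a group, for MPS VII day 14, MPS VII day 9, control day 14 and control day 9. Panels A and B show single-interval genes whose MPS VII libraries overlap between ages, C the gene with the highest level, and D, E and F genes whose 5 MPS VII libraries at day 14 lie below all 5 at day 9.

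The 8 most abundant of the 109 genes ranged in structure from a single interval to 8 intervals. The highest level, 593 CPM or 363 CPM per kilobase, was that of ENSCAFG00000001324 at chr10:25528476-25530202, with 2 exon intervals and 93 gap bases. It had 397, 377, 433, 495 and 487 CPM in MPS VII dogs at day 14, against 534, 563, 1941, 636 and 682 CPM at day 9. In controls it had 361, 385, 432, 388 and 424 CPM at day 14, against 572, 583, 679, 807 and 689 CPM at day 9. The ages did not overlap in either genotype, and library 3 of the MPS VII dogs at day 9, the one that stood apart, was far above the others of its group. The mean of its 2 age changes was -0.77, and -0.58 without that library.

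The gene at chr21:47672325-47672960, a single interval with 106 CPM per kilobase, had 58.1, 53.7, 31.0, 46.2 and 40.8 CPM in MPS VII dogs at day 14, against 74.4, 80.6, 88.2, 111 and 92.2 CPM at day 9. In controls it had 17.3, 39.6, 70.5, 30.0 and 43.3 CPM at day 14, against 93.7, 108, 82.6, 92.1 and 95 CPM at day 9. The ages did not overlap in either genotype, and the widest spread was in controls at day 14. The gene at chr30:37326947-37329458, with 2 intervals and 200 gap bases, averaged 85.2 ± 20.6 CPM in MPS VII dogs at day 14 and 149 ± 16.7 CPM at day 9, and 78.2 ± 20.3 CPM in controls at day 14 and 166.1 ± 37.0 CPM at day 9 (SD, n = 5 each). Its ages did not overlap in either genotype.

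The gene at chr26:8887240-8887646, with 2 gap bases and 312 CPM per kilobase, averaged 102 ± 16.8 CPM in MPS VII dogs at day 14 and 174 ± 55.0 CPM at day 9. In controls it averaged 79.3 ± 4.75 CPM at day 14 and 149.8 ± 17.6 CPM at day 9. Its MPS VII ages were parted by 0.01 on the log2 scale, from 131 CPM in library 4 at day 14 to 132 CPM in library 1 at day 9. The gene at chr8:56849106-56850437, with 21 gap bases, averaged 49.5 ± 10.5 CPM in MPS VII dogs at day 14 and 82.0 ± 21.5 CPM at day 9, and 43.7 ± 2.26 CPM in controls at day 14 and 73.2 ± 13.9 CPM at day 9. Its ages overlapped in MPS VII. The other 3 of the 8 most abundant, at chr1:109150286-109160789, chr20:37928849-37956028 and chr25:39684358-39688221, were interrupted genes with age changes of -0.71 to -0.75 in MPS VII and -0.79 to -0.86 in controls.

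The widest separation of the MPS VII ages was in the gene at chr9:42171730-42208588, with 28 exon intervals. It had 2.66, 2.09, 2.46, 2.44 and 1.79 CPM in MPS VII dogs at day 14, against 4.08, 4.43, 6.95, 3.76 and 4.32 CPM at day 9. In controls it had 2.46, 1.83, 2.61, 2.06 and 3.55 CPM at day 14, against 4.39, 4.14, 3.79, 6.84 and 3.81 CPM at day 9. The log2 gap between the ages was 0.48 in MPS VII and 0.09 in controls. The gene at chr9:284728-291871, with 7 intervals, had the smallest SD relative to its mean of the genes described here, in MPS VII dogs at day 9: 11.8 ± 2.11 CPM in MPS VII dogs at day 14 against 19.8 ± 0.71 CPM at day 9, and 11.2 ± 1.29 CPM in controls at day 14 against 21.4 ± 3.01 CPM at day 9. The third, the single-interval gene at chr22:48675520-48675867, averaged 1.84 ± 0.353 CPM in MPS VII dogs at day 14 and 3.83 ± 1.41 CPM at day 9, and 1.61 ± 0.259 CPM in controls at day 14 and 3.99 ± 1.96 CPM at day 9.

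The adjacent pair on chromosome 10 was near-continuous. The gene at chr10:17184-18572 averaged 3.05 ± 1.75 CPM in MPS VII dogs at day 14 and 6.73 ± 4.27 CPM at day 9, and 2.77 ± 0.609 CPM in controls at day 14 and 5.28 ± 1.72 CPM at day 9 (SD, n = 5 each). The gene at chr10:61569-62216 averaged 3.34 ± 1.88 CPM in MPS VII dogs at day 14 and 7.91 ± 4.08 CPM at day 9, and 2.80 ± 0.827 CPM in controls at day 14 and 6.53 ± 1.91 CPM at day 9. In both genes libraries 3 and 5 were the highest of the MPS VII day 14 group and library 3 the highest at day 9.

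At the threshold, the 4 genes just inside had a weaker age change of -0.70 to -0.71, and the 4 just outside one of -0.69 to -0.70. The innermost, at chr9:42754488-42760424, was at -0.70 in MPS VII and -0.93 in controls, and it is the gene called for genotype at day 14. It averaged 13.1 ± 1.24 CPM in MPS VII dogs at day 14 and 10.2 ± 1.52 CPM in controls at day 14 (SD, n = 5 each). The others inside were at chr6:39123079-39127052, chr33:30744575-30856697 and chr5:39884375-39908214, and all 4 were interrupted genes. Outside lay chr20:43703450-43712494, chr25:38924579-38925966, chr1:109168644-109170131 and chr20:45036602-45039914, of which 2 were near-continuous.

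The genes of both structural classes varied between dogs of a group. The median SD of log2 CPM in near-continuous genes was 0.877 in MPS VII dogs at day 14, 0.766 in MPS VII dogs at day 9, 0.346 in controls at day 14 and 0.498 in controls at day 9. For all tested genes of that structure it was 0.508, 0.558, 0.377 and 0.407 in the same order of groups. Interrupted genes of the 109 had 0.513, 0.483, 0.340 and 0.271. For all tested interrupted genes it was 0.265, 0.326, 0.195 and 0.193. The near-continuous genes of the 109 thus spread more between dogs than tested genes of their structure in 3 of the 4 groups. Controls at day 14 were the exception, and the interrupted genes did so in all 4 groups. The rule asks the control libraries to separate by age, which limits the spread in controls but not in MPS VII. Nothing is therefore read from the difference between the genotypes or from the exception.

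Most of the near-continuous genes also went up and down together from dog to dog. After the group means were taken out, the median Pearson correlation over the 20 libraries was 0.62 among the 2145 pairs of the 66 genes. Of these pairs 59.8% were above 0.5, and the 10th percentile was -0.37. The median tells the classes apart. This median was 0.09 among pairs of the 43 interrupted genes, 0.01 among the 1502 near-continuous tested genes outside the 109, and 0 among all tested genes. These pairs share libraries and their depth, and the correlations are given as a description. The median profile of the 66 genes over libraries was followed at a correlation of at least 0.8 by 39 of the 66 themselves and by 9 of the 43 interrupted genes. Outside the 109 it was followed so by 128 of the 1502 near-continuous genes (8.52%) and by 163 of 12939 interrupted genes (1.26%). Of the 9 interrupted genes, 7 had over 100 and at most 500 gap bases. The classes were mixed: 8 of the 66 had a correlation of 0 or below with the profile, as had 22 of the 43.

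**Figure D4:**
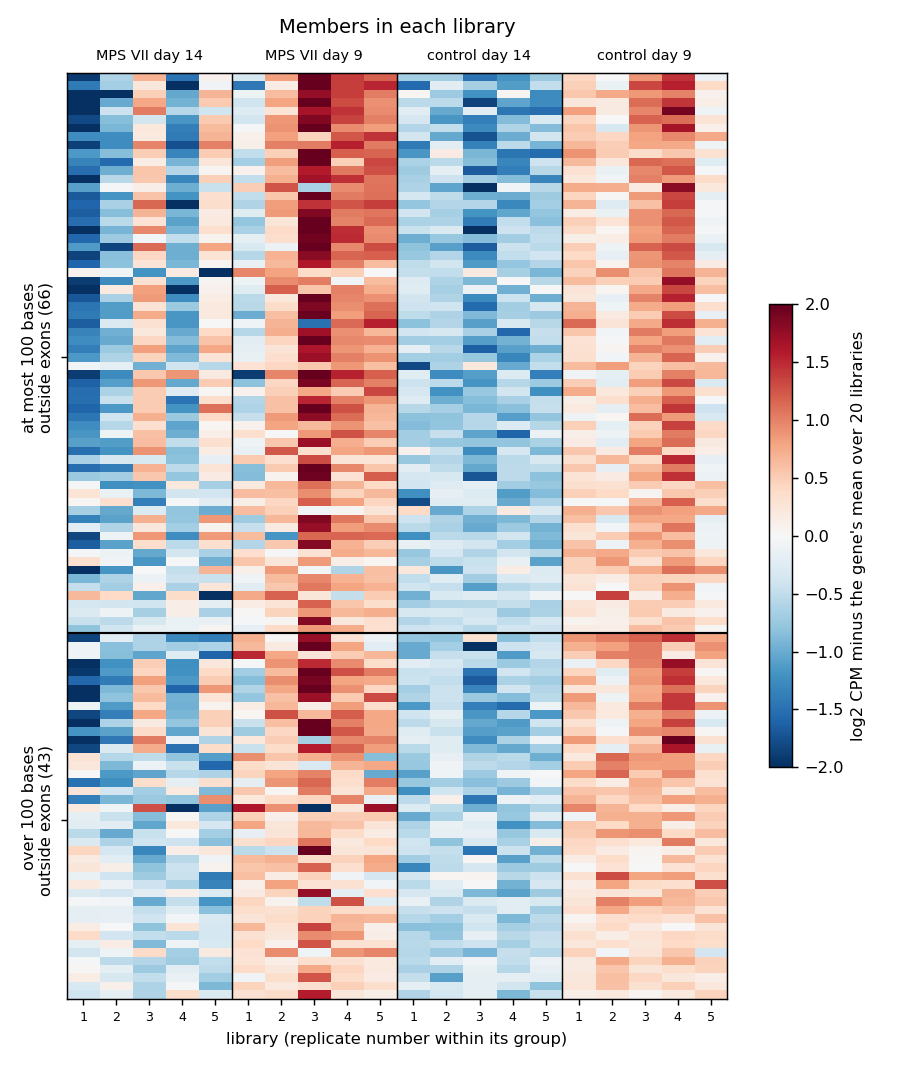
Each row is one of the 109 genes and each column a library, in the order MPS VII day 14, MPS VII day 9, control day 14, control day 9; colour gives log2 CPM minus the gene's mean over the 20 libraries, cut at 2 either way. Among the 66 near-continuous genes libraries 3 and 5 of the MPS VII day 14 group and library 1 of the MPS VII day 9 group run against the age pattern, with 49, 49 and 45 of the 66 genes on the other side of their mean, and 14, 15 and 12 of the 43 interrupted genes.

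This common pattern placed some MPS VII dogs against their age. The median deviation of the near-continuous genes from their own means, on the log2 scale, was -1.43, -0.71, 0.39, -0.89 and 0.17 in MPS VII libraries 1 to 5 at day 14, against -0.18, 0.57, 1.66, 0.96 and 0.90 at day 9. In controls it was -0.54, -0.57, -0.90, -0.67 and -0.60 at day 14, against 0.43, 0.09, 0.75, 1.06 and 0.09 at day 9. Libraries 3 and 5 of the MPS VII dogs at day 14 lay above library 1 at day 9. The control ages could not overlap, since the rule parts them in every gene, so the genotypes are not compared here. The same libraries 3 and 5 had the highest mitochondrial shares of their group, 3.71% and 3.68%, against 2.43% to 2.90% in the other 3, and the part of this in the result was not tested. For the interrupted genes the medians were -0.20, -0.40, -0.49, -0.47 and -0.33 in MPS VII dogs at day 14, against 0.30, 0.38, 0.95, 0.51 and 0.35 at day 9. In controls they were -0.55, -0.44, -0.52, -0.66 and -0.52 at day 14, against 0.37, 0.39, 0.66, 0.66 and 0.42 at day 9. These medians did not overlap between ages in either genotype, which in controls restates the rule. All 5 MPS VII libraries at day 14 lay below all 5 at day 9 in 12 of these 43 genes (27.9%), where 3.65% of tested interrupted genes did so, and in 7 of the 66 near-continuous genes (10.6%), where 2.17% of tested near-continuous genes did so.

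A property of the libraries moved with the near-continuous genes. The share of even numbers was taken among counts of at least 1 and below 200, in genes outside the 109. Some counts are even in any case. Counting both mates of a read pair would raise the share, but how mates were counted is not given and was not tested. The share of even counts was 69.5% ± 4.28 in MPS VII dogs at day 14 (range 65.0% to 74.7%) and 74.8% ± 2.12 at day 9 (71.1% to 76.4%). In controls it was 70.7% ± 1.84 at day 14 (67.8% to 72.7%) and 74.9% ± 1.64 at day 9 (73.1% to 76.3%; SD, n = 5 in each group). Within 3 of the 4 groups, MPS VII at day 14, MPS VII at day 9 and control at day 9, the order of the 5 libraries by this share was the order of the near-continuous median. In controls at day 14, 2 of 5 libraries had the same rank, and for the interrupted genes the order was the same in 0 of the 4 groups. The near-continuous tested genes outside the 109 had the same order in controls at day 9, and 2 of 5 libraries at the same rank in each of the other 3 groups. The genes' own counts were even in a median of 95% of libraries for near-continuous genes and 65% for interrupted genes, against 55% over tested genes and 70% over tested near-continuous genes.

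**Figure D5:**
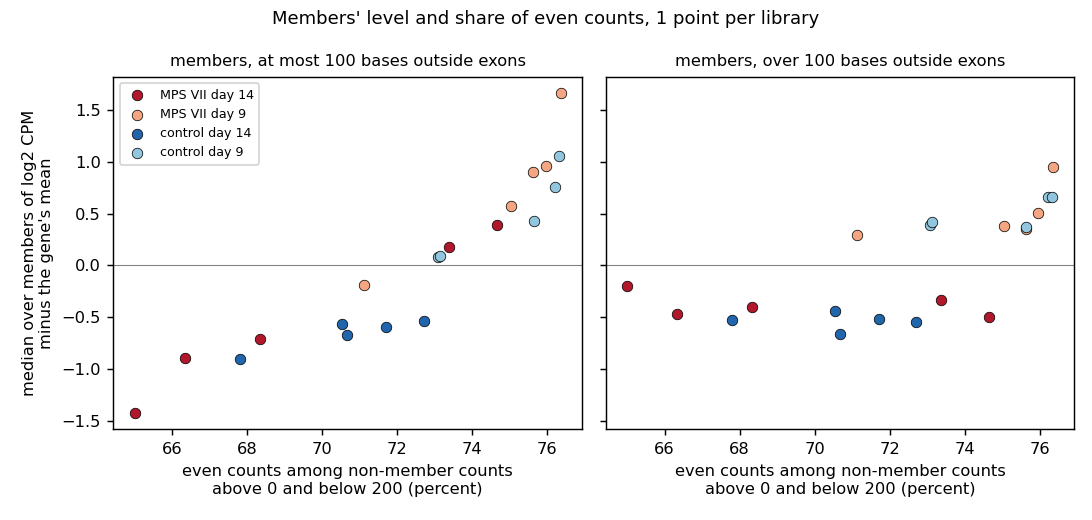
Each point is a library, with the percent of even counts in genes outside the 109 on the x axis and the median over genes of log2 CPM minus the gene's mean on the y axis, for the 66 near-continuous genes (left) and the 43 interrupted genes (right). On the left the points climb with the share of even counts from -1.43 to 1.66; on the right they part by age at 0 in both genotypes.

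The rule was run again with the within-group slope on this share removed from every gene, an alternative chosen after seeing the data. Of the 109 genes 37 still met it, 10 of the 66 near-continuous and 27 of the 43 interrupted, among 459 genes in all. The median age change of the near-continuous genes was then -0.20 in MPS VII and -0.42 in controls, in place of -1.20 in each. That of the interrupted genes was -0.89 in MPS VII and -0.98 in controls, in place of -0.84 and -1.05. Each gene had 1 slope for all 4 groups, and the share spread most in MPS VII dogs at day 14 (SD 4.28). The adjusted changes in controls thus rest largely on a slope set by those MPS VII dogs. The age change stayed below 0 in both genotypes in 50 of the 66 and in 38 of the 43. Leaving out a library, with no adjustment, bore on the classes in another way. Without library 3 of MPS VII day 9, 57 of the 66 near-continuous and 22 of the 43 interrupted genes met the rule. Without library 3 of MPS VII day 14 it was 58 and 22. Without library 1 of MPS VII day 9 it was 41 and 35. Among the genes described above, the adjusted changes of ENSCAFG00000006414 were -1.47 in MPS VII and -1.49 in controls, and those of the chromosome 21 gene at 47672325 were -1.41 and -1.71. The changes of the chromosome 22 gene at 3746138 were -0.27 in MPS VII and -0.34 in controls. Those of the chromosome 26 gene at 16767636 were 0.00 in MPS VII and -0.47 in controls, and those of ENSCAFG00000001324 were -0.61 and -0.58. Of the near-continuous genes of the 109 described above, only the chromosome 21 gene at 47672325 still met the rule. Of the interrupted genes of the 109 described above, all but the chromosome 5 gene at 39884375 still met it. Depth and the share of even counts both moved with age, but within a group they could go apart. In MPS VII dogs at day 14 library 1 had the most counts, 22471728, and the lowest share, 65.0%. Library 3 of that group had the fewest, 15772761, and the highest share, 74.7%. In controls at day 14 library 3 had the fewest counts, 16975358, and the lowest share, 67.8%. The part of depth and of this share in the age change was not tested beyond this adjustment for the share.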

How the data were processed

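Per the labels' protocols, stranded mRNA libraries of 20 dogs were read as pairs of 100 bases and placed on CanFam3.1, with genes from Ensembl build 77. STAR 2.4.0j, HTSeq, edgeR, CASAVA 1.8.2 and bcl2fastq are named in the submitters' processing notes. How the counter used strand, mates and multiply placed reads is not given in the sources used here. The authors deposited raw counts per gene, with exon intervals and lengths; 0 count columns lacked a sample. Each library was taken as 1 animal from its labels, which give no litter, sex or batch. No 2 libraries of a group were alike within sampling noise (chi-square per gene 16.7 to 607 over 40 pairs, at least 20 counts).

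The counts were fitted in R 4.3.3 with edgeR 4.0.16. filterByExpr on the 4 groups kept 14550 genes and dropped 10030 with 0.0413% of counts. Libraries were scaled by TMM, and log2 CPM used a prior count of 2. A quasi-likelihood fit of 4 group means over all 20 libraries gave 5 comparisons, adjusted over all tested genes (threshold 0.05, biological coefficient of variation 0.239), and was tested on simulated data. CPM are scaled counts without a prior. Exon intervals were compared with GenomicRanges 1.54.1. Intervals from such counts would cover counting error only, since copies made by PCR cannot be told apart.

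The genes and lists were chosen with earlier results of these data known. Genes described singly are the 8 with the most negative mean of both age changes, the 8 with the highest mean CPM, the 4 nearest the threshold on each side, the 3 with the widest gap between MPS VII ages, and adjacent pairs. Alternatives covered scaling (also DESeq2 1.42.0), filters, prior count, halved counts, the rule's limits, the groups in the fit, each library left out and the share of even counts.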

Additional observations from a re-analysis of the deposited data

Results flagged for a closer look

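In groups of 5 libraries, 1 library far from the others was looked for in 28 measures over 4 groups. Of the 112 groups, 9 had one (8.04%), where chance flags about 1 in 20 groups of independent values. The measures here share their libraries, so the shares are not compared. Library 3 of the MPS VII dogs at day 9 was the far one in 5 of them. It gave 0.458% of its counts to the 109 genes, against 0.135% to 0.174% in the others. It had 1941 CPM of the gene at chr10:25528476-25530202, against 534 to 682 CPM in the others. It had 33.5 CPM of the gene at chr6:39123079-39127052 (others 12.1 to 14.6), 6.32 CPM of the gene at chr22:48675520-48675867 (others 3.01 to 3.63) and 6.95 CPM of the gene at chr9:42171730-42208588 (others 3.76 to 4.43).

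Library 4 of the controls at day 9 had 6.84 CPM of the gene at chr9:42171730-42208588, against 3.79 to 4.39 CPM. Library 2 of the MPS VII dogs at day 9 was low for the gene at chr30:37326947-37329458, with 119.7 CPM against 154 to 160.2 CPM. Library 4 of the controls at day 14 was low for the gene at chr10:61569-62216, with 1.41 CPM against 2.72 to 3.46 CPM. Library 3 of the controls at day 14 was high for the gene at chr23:30171261-30331789, with 1.13 CPM against 0.469 to 0.605 CPM.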

How the results depend on the processing

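The number of genes that met the rule was 168 at a threshold of -0.6, 58 at -1, 19 when the MPS VII libraries also had to separate, 255 when control libraries could overlap, and 459 with the share of even counts removed. It was 75 to 159 under the other 6 settings and 92 to 155 with 1 library left out, the highest without control day 9 library 2, with 76 to 106 of the 109 among them. With 1 MPS VII library left out, 20 to 47 of the 109 separated between MPS VII ages. Leaving a library out can only keep or widen the gap, so this number cannot fall below 19.

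For age in MPS VII, 28 of the 109 were called when only the 2 groups were fitted (284 of all tested genes), 37 with the share of even counts as a covariate (2271), 870 of all genes without a filter, and 39 to 85 (681 to 1586) with 1 library left out. The 39 came without MPS VII day 14 library 2, and the 681 without library 3 of that group. For age in controls it was 44 with the covariate (3281) and 68 to 93 (2267 to 2821) with 1 library left out. For genotype at day 14 it was 0 without a filter (2922), 2 with counts halved (3212), 2 by DESeq2 (3582), 4 with only the 2 groups (3777), 8 with the covariate (3503) and 0 to 3 (2448 to 3312) with 1 library left out. For genotype at day 9 it was 0 (896 to 1448) with 1 library left out, and 726 of all genes with only the 2 groups. For the difference of the age change it was 0 (199 to 759), and 932 of all genes by DESeq2. The causes were not tested. Near-continuous genes numbered 38 with no gap bases allowed and 79 with 500. The single genes kept the sign of their mean age change in all 749 alternatives, but 11 values, all with the share of even counts removed, moved by more than the spread between replicates, that of the gene at chr10:17184-18572 to -0.05. No paired analysis was possible because the labels give no replicate or litter numbers. Low counts limit the many genes under 1 CPM in a group, and only 2 ages were sampled.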
